A study of Mus musculus with 6 samples.

Results

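The genes described here are 37 genes of DNA repair, taken from the deposited table by symbol: genes of homologous recombination, the Fanconi anaemia pathway, mismatch repair, base excision repair and end joining, the damage checkpoint kinases, and the endonuclease gene Ankle1. All 37 were in the table of 17526 genes, and all 37 passed the filter on low counts that left 12943 genes for testing. RNA was sequenced from small intestinal crypts, the epithelial pockets in which stem cells and their dividing progeny sit beside Paneth cells, in 6 mouse libraries. The 3 floxed control libraries came from Fpr2f/f mice, whose Fpr2 gene is flanked by loxP sites and whose genotype is labelled WT. The 3 knockout libraries came from Fpr2VKO mice, labelled as lacking Fpr2 in the intestinal epithelium; the driver of the deletion, and the age, sex and strain of the animals, are not given in the labels. Fpr2 encodes formyl peptide receptor 2, and the series asks what its loss does to stem cell proliferation and differentiation. Ankle1 was put among the 37 genes because earlier results of these data had it higher in knockout crypts, so its difference between the groups is given as a description without a test. The other 36 genes were listed for their function, but with earlier results of these data known.

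Dividing cells copy their DNA in each cycle, and repair genes divide by the kind of damage they handle. Homologous recombination mends double-strand breaks from the sister copy, the Fanconi proteins unhook crosslinked strands, mismatch repair corrects copying errors, base excision removes damaged bases and end joining ligates broken ends directly. Many genes of recombination and crosslink repair are transcribed most in S and G2 phase under E2F and the DREAM complex, whereas the end joining genes are made through the whole cycle. ANKLE1 is an ankyrin repeat and LEM domain protein with a GIY-YIG endonuclease domain, known mainly from blood-forming tissue, and its nematode relative LEM-3 cuts DNA bridges that remain between dividing cells.

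Promoter sequence is shown for 4 of the genes: Ankle1, Bard1 and Neil3, which had the 3 highest log2 changes, and Xrcc6, which carries an E2F site letter string and changed little. Each runs 5′ to 3′ on the gene's own strand, from 250 bases before to 30 bases after the RefSeq start site (GRCm38.p6, the assembly of mm10). Capitals mark matches, on either strand, to the E2F strings TTTCCCGC, TTTGGCGC, TTTCGCGC and TTTGCCGC or to the cell cycle gene homology region strings TTTGAA and TTCGAA. No 2 matches overlap in these windows, whereas in the Msh3 promoter the TTTGGCGC and TTTCGCGC matches do. The Ankle1 window is chr8:71405762-71406041 (plus strand), Bard1 is chr1:71102943-71103222 (minus strand), Neil3 is chr8:53639036-53639315 (minus strand) and Xrcc6 is chr15:82016119-82016398 (plus strand).
Ankle1: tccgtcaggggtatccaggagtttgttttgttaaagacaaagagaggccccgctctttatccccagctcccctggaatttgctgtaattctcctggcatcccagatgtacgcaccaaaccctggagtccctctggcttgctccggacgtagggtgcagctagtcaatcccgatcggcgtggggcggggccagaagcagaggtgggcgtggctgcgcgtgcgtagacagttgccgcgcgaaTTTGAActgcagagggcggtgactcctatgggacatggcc
Bard1: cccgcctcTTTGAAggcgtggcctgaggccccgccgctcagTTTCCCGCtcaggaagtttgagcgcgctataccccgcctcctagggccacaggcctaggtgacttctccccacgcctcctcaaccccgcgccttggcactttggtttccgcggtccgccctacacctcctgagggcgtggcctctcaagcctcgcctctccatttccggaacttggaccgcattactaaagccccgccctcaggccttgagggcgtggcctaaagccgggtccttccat
Neil3: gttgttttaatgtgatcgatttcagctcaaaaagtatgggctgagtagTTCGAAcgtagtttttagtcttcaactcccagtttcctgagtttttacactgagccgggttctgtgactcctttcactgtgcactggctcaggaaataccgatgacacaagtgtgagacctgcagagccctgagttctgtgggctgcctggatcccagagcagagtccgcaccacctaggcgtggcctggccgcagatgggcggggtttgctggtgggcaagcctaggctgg
Xrcc6: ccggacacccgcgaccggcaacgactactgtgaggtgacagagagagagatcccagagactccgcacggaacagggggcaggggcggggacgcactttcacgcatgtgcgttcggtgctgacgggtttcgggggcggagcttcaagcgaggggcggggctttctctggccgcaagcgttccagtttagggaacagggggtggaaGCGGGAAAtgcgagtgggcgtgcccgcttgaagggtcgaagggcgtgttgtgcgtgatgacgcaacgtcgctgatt

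The TTTGAA string of Ankle1 starts 10 bases before its start site, whereas that of Bard1 lies 242 bases and the TTCGAA string of Neil3 lies 202 bases before theirs. The RefSeq promoter table matched 32 of the 37 genes with 36 start sites. Over the full windows of 250 bases before to 50 after the start, any of the 4 E2F strings stood in 8 of the 36 member promoters (22.2%) and in 2.26% of all 32851 promoters in the table. Either homology region string stood in 6 of 36 (16.7%) against 19.2% of all promoters, and CCAAT stood in 20 of 36 (55.6%) against 37.4%. Gene type and base composition were not matched between the members and all promoters. The 7 genes with an E2F string were Bard1, Brca2, Chek2, Msh3, Msh6, Rad51c and Xrcc6, whose log2 changes between the groups ran from 0.19 for Xrcc6 to 0.92 for Bard1. The 6 genes with a homology region string were Ankle1, Atr, Bard1, Eme1, Neil3 and Rad51b, with log2 changes from 0.0044 for Rad51b to 1.34 for Ankle1. A match of letters is a description and not a binding site.

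Total estimated counts per library ran from 11108511 to 16859902, and a member had between 30.04 and 1471 estimated counts in a library. Nothing in the labels ties each library to its own animal, and the p-values therefore cover only variation among these 6 libraries, part of which may be technical. The targeted gene was not analysed here, and the genotype labels were not checked against it. Crypt identity was checked on 8 stem cell and 12 Paneth cell genes, none of which was at 0 throughout. Floxed controls 1 and 3 were high in T cell and erythroid transcripts. On the log2 scale they were also high in B and plasma cell transcripts. The summed level of the 11 T cell markers in the table was 66.7 to 259.5 CPM (counts scaled to a common library size) in the floxed controls and 59.0 to 76.8 CPM in the knockouts, and the 5 erythroid markers summed to 5.11 to 17.2 CPM against 1.502 to 3.89 CPM. The 7 B and plasma cell markers in the table, which include Cd74, summed to 848 to 1322 CPM against 565 to 1123 CPM, and the 7 stromal and vessel markers summed to 14.7 to 25.2 CPM against 9.87 to 13.8 CPM. None of these markers was at 0 in all libraries. The 12 Paneth cell markers took 7.06% to 12.9% of CPM in the floxed controls and 2.78% to 4.23% in the knockouts, which moves with the group in the direction opposite to the repair genes. In other epithelial lists the log2 change was negative for 8 of 8 stem cell (median -0.39), 8 of 8 goblet (-0.72), 8 of 8 enteroendocrine (-0.88) and 8 of 8 tuft cell markers (-1.01), and for 7 of 8 enterocyte markers (-0.26). By edgeR 0 of the Paneth, stem, goblet, enteroendocrine, tuft and enterocyte markers were called, beside 0.0155% of all genes. In that order 12, 5, 6, 8, 7 and 1 were lower at an unadjusted p under 0.05, beside 9.63% of all genes. In the same order DESeq2 called 12, 2, 2, 4, 5 and 0 lower, beside 304 of the 12692 genes with an adjusted p. The part of these cell types in the results below was not tested. In bulk RNA, fewer cells of a type and less RNA per cell cannot be told apart.

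Ankle1 (gene 234396, chromosome 8, 71405986 to 71410728 in mm10) was higher in each knockout library than in each floxed control. Its level was 11.4, 14.9 and 9.06 CPM in floxed controls 1, 2 and 3. It was 23.6, 33.5 and 33.1 CPM in knockouts 1, 2 and 3. The groups did not overlap, and the lowest knockout was knockout 1. The means were 11.8 ± 2.96 and 30.05 ± 5.60 CPM (SD, n = 3 each), a log2 fold change of 1.34 ± 0.23 (SE) or 2.53-fold, which is the value that put the gene on the list. The log2 change was 1.07 with floxed controls 1 and 3 left out, which leaves 1 control library, and 1.70 with floxed control 2 and knockout 1 left out. Between that last pair, Ankle1 was higher in knockout 1 by 0.65 on the log2 scale, beside a median of 0.053 over the other 36 genes. Both libraries are part of the contrast that chose Ankle1, so this comparison supports nothing further.

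Ankle1 lies between Babam1 and Abhd8 on chromosome 8. Babam1, which encodes a subunit of the BRCA1-A complex, was at 104.4 ± 27.3 CPM in the floxed controls and 94.5 ± 9.98 CPM in the knockouts (log2 -0.14 ± 0.20, adjusted p = 0.813 by edgeR). Abhd8, a hydrolase family gene, was at 5.23 ± 1.14 against 2.35 ± 0.857 CPM (log2 -1.15 ± 0.33, adjusted p = 0.182 by edgeR). Neither neighbour had a positive log2 change. RefSeq also places a long noncoding RNA gene, Gm39193, across the start of Ankle1, and these data hold no values under that symbol. The estimated counts of Ankle1 are not whole numbers, as for 19 of the 37 genes; how the counting divided reads is not given.

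**Figure D1:**
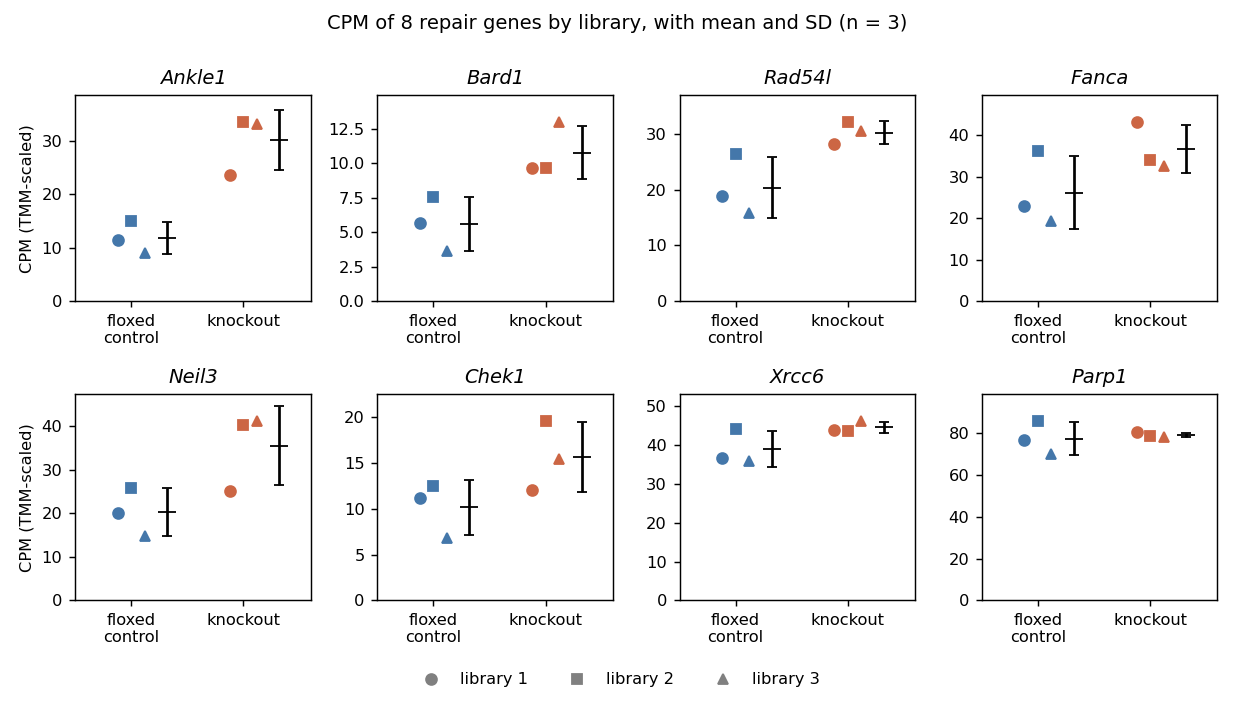
Level of 8 repair genes in CPM (vertical axes, each from 0) in floxed control (blue) and knockout (orange) libraries, with the marker shape giving the library number and black bars the mean and SD of 3 libraries. Ankle1, Bard1 and Rad54l have each knockout above each floxed control, while Fanca, Neil3, Chek1, Xrcc6 and Parp1 overlap.

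Among the other 36 genes most had a higher level in knockout crypts by a small amount, and none passed the test. Of the 36, 34 had a positive log2 fold change and 2, Lig4 and Atm, a negative one, with a median of 0.33; over all genes tested 48.1% were positive and the median was -0.013. By edgeR's quasi-likelihood test with Benjamini-Hochberg adjustment over all genes, 0 of 36 were called, where 0.0155% of all genes were called in either direction and 0.00773% were called higher. At an unadjusted p under 0.05, 8 of 36 were higher and 0 lower, beside 4.09% and 9.63% of all genes. DESeq2 called 0 of the 36 as well, where it called 0.299% of genes higher, and limma-voom called 0. Every knockout lay above every floxed control for 8 of the 36, Brca1, Bard1, Palb2, Rad51c, Rad54l, Blm, Fanci and Pms2, beside 6.99% of all genes. The estimate was 1.5-fold or more higher for 4 of the 36, beside 2.87% of all genes.

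**Figure D2:**
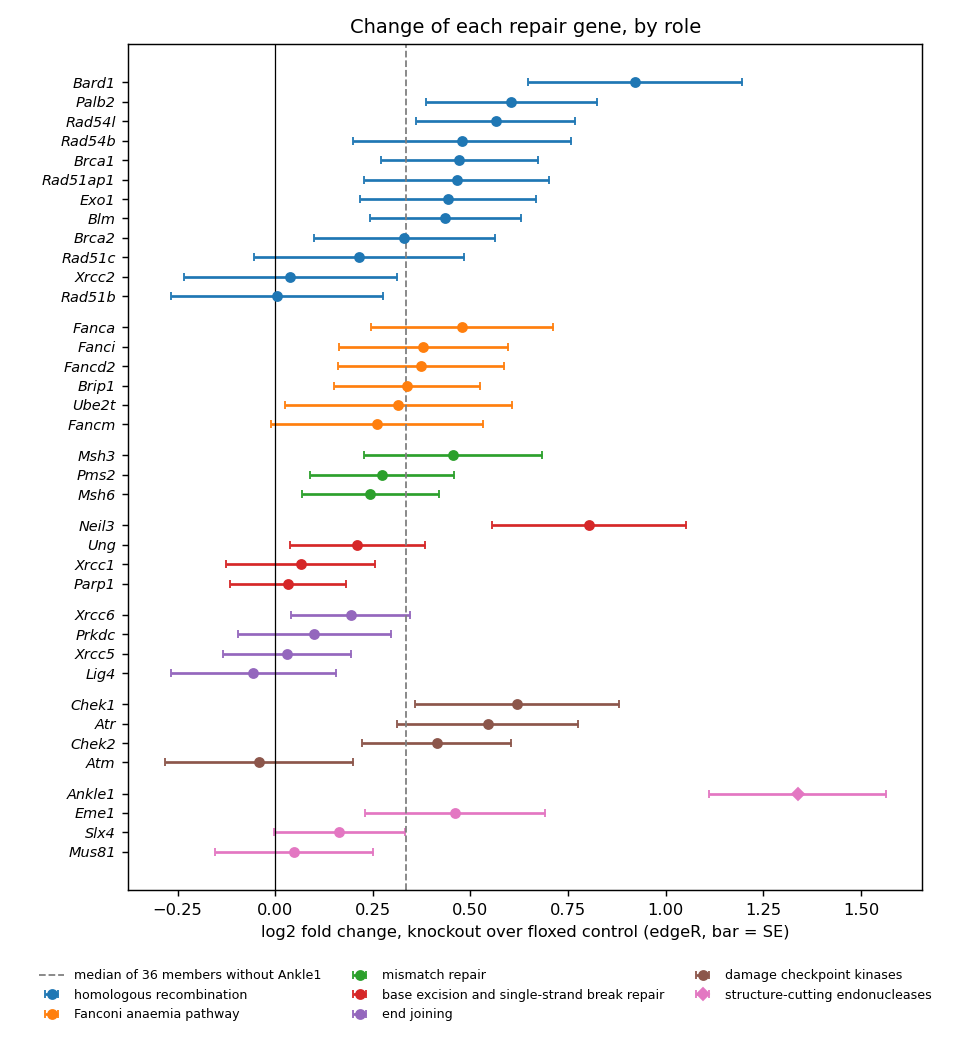
Log2 fold change of knockout over floxed control for each of the 37 genes (horizontal axis; points are edgeR estimates, bars their SE), grouped and coloured by role, with Ankle1 as a diamond and the median of the other 36 genes dashed at 0.33. End joining genes lie between -0.056 and 0.19 and recombination genes between 0.0044 and 0.92. The ranges overlap, and the difference between roles was not tested.

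The 12 genes of homologous recombination had a median log2 change of 0.45, each of them positive. Of the 12, 5 were higher at an unadjusted p under 0.05, beside 4.09% of all genes. Bard1 encodes the RING partner of BRCA1 in the ubiquitin ligase that marks damaged chromatin. Its 3 floxed controls had 5.68, 7.54 and 3.64 CPM, in order of their numbers, and its knockouts 9.65, 9.66 and 12.99 CPM, with no overlap. Its means of 5.62 ± 1.95 and 10.8 ± 1.92 CPM (SD, n = 3) gave a log2 change of 0.92 ± 0.27 (SE; adjusted p = 0.191 by edgeR), the highest after Ankle1. Palb2, which bridges BRCA1 and BRCA2, was at 5.07, 6.56 and 5.71 CPM against 7.79, 10.1 and 8.56 CPM (log2 0.60 ± 0.22, adjusted p = 0.256 by edgeR). Its groups did not overlap either. Rad54l, a motor protein that acts in invasion of the sister strand, was at 18.8, 26.4 and 15.9 CPM against 28.1, 32.1 and 30.5 CPM (log2 0.57 ± 0.20, adjusted p = 0.253 by edgeR). Floxed control 2 was its highest control and lay below the lowest knockout.

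Brca1 and Brca2, which act in resection and strand exchange, had log2 changes of 0.47 ± 0.20 and 0.33 ± 0.23. Brca1 was at 16.4, 17.2 and 11.2 CPM in the floxed controls and 20.7, 22.9 and 18.9 CPM in the knockouts. Brca2 was at 15.8, 9.77 and 11.7 CPM against 12.2, 18.3 and 16.2 CPM, so floxed control 1 lay above knockout 1. Exo1, the resecting exonuclease, Blm, the helicase that dissolves crossed strands, and Rad51ap1 and Rad54b, which assist strand exchange, lay between 0.44 and 0.48. Rad51b, Xrcc2 and Rad51c, whose products work in shared complexes, were nearest to 0, with log2 changes of 0.0044 ± 0.27, 0.039 ± 0.27 and 0.22 ± 0.27.

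In the Fanconi anaemia pathway each of 6 genes was positive, with a median of 0.36. None (0) had an unadjusted p under 0.05, beside 4.09% of all genes higher and 9.63% lower. Fanca, a subunit of the core ubiquitin ligase, was at 23.0, 36.1 and 19.4 CPM in the floxed controls and 43.2, 34.0 and 32.5 CPM in the knockouts (log2 0.48 ± 0.23, adjusted p = 0.399 by edgeR). Floxed control 2 lay above knockouts 2 and 3. Fanci, which with Fancd2 makes the clamp that the ligase marks, was at 6.38, 9.51 and 8.37 CPM against 9.87, 11.96 and 9.80 CPM (log2 0.38 ± 0.22, adjusted p = 0.473 by edgeR). Its partner Fancd2 had 0.37 ± 0.21, the helicase gene Brip1 0.34 ± 0.19, the ubiquitin-conjugating enzyme gene Ube2t 0.32 ± 0.29 and the translocase gene Fancm 0.26 ± 0.27. The sizes for Fancm and Ube2t depended on single libraries, while the signs stayed positive when any single library was left out. With floxed controls 1 and 3 both left out, Ube2t was -0.18. Fancm was 0.55 without floxed control 1, 0.10 without floxed control 3 and 0.074 without knockout 2. Ube2t was 0.74 without floxed control 2, 0.12 without floxed control 1 and 0.21 without knockout 1. With single libraries left out, Brip1 ran from 0.29 to 0.45 and Fancd2 from 0.27 to 0.53. Fanca was 0.79 without floxed control 2.

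Mismatch repair had 3 positive genes of 3, with a median of 0.27. Msh6 and Msh3 encode subunits that recognise mispairs and loops, and Pms2 an endonuclease subunit that acts after them. Msh3 was at 21.0, 15.6 and 11.4 CPM in the floxed controls and 18.8, 23.7 and 23.5 CPM in the knockouts (log2 0.45 ± 0.23, adjusted p = 0.410 by edgeR). Msh6 was at 42.2, 39.8 and 30.1 CPM against 41.7, 49.95 and 41.2 CPM (log2 0.24 ± 0.18). In both, floxed control 1 overlapped the knockouts. Pms2 was at 11.4, 13.2 and 9.85 CPM against 13.7, 14.003 and 14.2 CPM, a small difference without overlap (log2 0.27 ± 0.18, adjusted p = 0.561 by edgeR).

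The 4 base excision and single-strand break repair genes had a median of 0.14, which was 0.31 without floxed control 2. Neil3, a DNA glycosylase of dividing cells, was at 20.2, 25.9 and 14.8 CPM in the floxed controls and at 25.1, 40.4 and 41.2 CPM in the knockouts (log2 0.80 ± 0.25, adjusted p = 0.200 by edgeR). Knockout 1 lay below floxed control 2, while knockouts 2 and 3 were above each control. Ung, the glycosylase that removes uracil, was at 23.8, 29.0 and 22.8 CPM against 25.8, 32.7 and 29.3 CPM (log2 0.21 ± 0.17). Parp1, the sensor of strand breaks, was at 76.7, 85.9 and 69.9 CPM against 80.5, 78.9 and 78.4 CPM (log2 0.032 ± 0.15). The 3 knockouts fell within the range of the floxed controls, as they did for its scaffold partner Xrcc1 (log2 0.065 ± 0.19).

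The 4 end joining genes had a median of 0.065, with 3 positive and 1 negative. The median was 0.17 without floxed control 1 and 0.011 without floxed control 3. Xrcc6, the Ku70 subunit, was at 36.8, 44.3 and 35.8 CPM in the floxed controls and 44.0, 43.6 and 46.2 CPM in the knockouts (log2 0.19 ± 0.15, adjusted p = 0.634 by edgeR). Prkdc, the kinase that Ku recruits, was at 22.6, 16.8 and 14.7 CPM against 17.9, 20.6 and 19.5 CPM (log2 0.10 ± 0.20). The Ku80 gene Xrcc5 had 0.031 ± 0.16 and the ligase gene Lig4 -0.056 ± 0.21. No test of the difference between role groups was made.

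Of the damage checkpoint kinases, 3 were positive and Atm was not, with a median of 0.48. Chek1, the effector kinase of replication stress, was at 11.2, 12.5 and 6.79 CPM in the floxed controls and 12.02, 19.6 and 15.4 CPM in the knockouts (log2 0.62 ± 0.26, adjusted p = 0.329 by edgeR). Atr, the kinase upstream of it, was at 21.4, 18.5 and 11.8 CPM against 21.0, 29.5 and 25.0 CPM (log2 0.54 ± 0.23, adjusted p = 0.335 by edgeR). For both genes knockout 1 lay just under the highest floxed control. Atm, the kinase that answers double-strand breaks, was at 41.3, 22.6 and 25.5 CPM against 27.9, 34.7 and 24.1 CPM (log2 -0.042 ± 0.24, adjusted p = 0.964 by edgeR), with floxed control 1 the highest library; without that library its log2 change was 0.30. Its effector Chek2 had 0.41 ± 0.19.

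The other genes of structure-cutting endonucleases had log2 changes from 0.047 to 0.46. Eme1, the partner of MUS81, was at 8.82, 15.3 and 10.1 CPM in the floxed controls and 13.9, 15.99 and 17.5 CPM in the knockouts (log2 0.46 ± 0.23, adjusted p = 0.409 by edgeR). Mus81 itself was at 11.004, 14.2 and 13.4 CPM against 15.6, 10.9 and 13.4 CPM (log2 0.047 ± 0.20). Slx4, the scaffold for these nucleases, was at 23.8, 20.4 and 18.3 CPM against 22.2, 23.7 and 24.2 CPM (log2 0.16 ± 0.17). All 3 overlapped between the groups.

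Per kilobase of annotated exon, Parp1 had the highest level of the 37 genes, at 14.8 CPM per kb over the 6 libraries, and Rad51c the lowest, at 0.701 CPM per kb. Ankle1 was 7th in the floxed controls, at 4.62 CPM per kb, and 2nd in the knockouts, at 11.7 CPM per kb. That shift restates the difference for which Ankle1 was chosen. Msh6, Chek2 and Xrcc6 followed it in the knockouts with levels per length of 10.2, 10.2 and 9.97 CPM per kb. These orders use the union of all annotated exons as length.

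**Figure D3:**
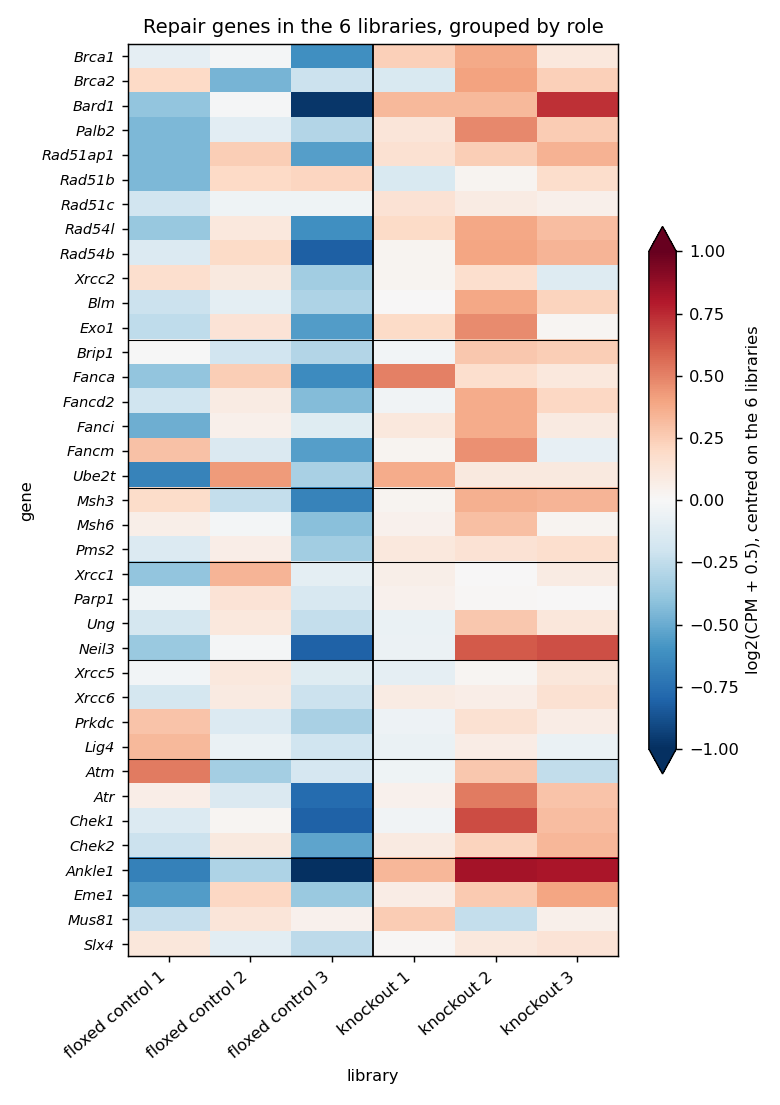
Level of each of the 37 genes (rows, divided by role) in the 6 libraries (columns) as log2(CPM + 0.5) centred on the libraries, from blue (below the mean) to red (above), with the colours ending at 1 and -1. Floxed control 3 is the lowest library for 27 of 37 genes, and Ankle1, chosen for its difference, is the row with the widest separation of the groups.

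Within the floxed controls most of the genes varied in the same direction, and some did not. Floxed control 3 was the lowest library for 27 of the 37 genes, floxed control 1 for 7, floxed control 2 for 2 (Brca2 and Atm) and knockout 2 for 1 (Mus81). Knockout 2 was the highest library for 18 genes. For these lowest and highest libraries the shares over all genes were not computed. Among the floxed controls, number 2 was the highest for 23 of the 36 genes other than Ankle1, beside 39.9% of all genes, and it lay at or above the lowest knockout for 19 of the 36, beside 75.2% of all genes. As a mean log2 CPM centred on the libraries, the 36 genes had -0.14, 0.027 and -0.40 in floxed controls 1, 2 and 3. In the knockouts they had 0.073, 0.27 and 0.18, so that each knockout lay above each floxed control, with floxed control 2 and knockout 1 nearest to each other.

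Cell division genes, of which none is among the 37, also had floxed control 3 lowest and knockout 2 highest, but their groups overlapped, since floxed control 2 lay above knockout 1. The 25 S phase genes stood at -0.36, 0.25 and -0.47 in the floxed controls and 0.11, 0.30 and 0.17 in the knockouts on the same centred scale. The 25 G2/M genes stood at -0.38, 0.20 and -0.56 against 0.16, 0.33 and 0.26. Less the S phase level of the same library, the 36 repair genes had 0.22, -0.22 and 0.067 in the floxed controls and -0.035, -0.033 and 0.0067 in the knockouts, so the knockouts lay within the range of the controls. Ankle1 less the S phase level stood at -0.33, -0.56 and -0.56 against 0.24, 0.55 and 0.66, and less the mean of the 36 repair genes at -0.55, -0.34 and -0.62 against 0.27, 0.58 and 0.65. These Ankle1 values come from the contrast that chose the gene and support nothing further. What share of the repair gene difference goes with cell division was not tested.

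**Figure D4:**
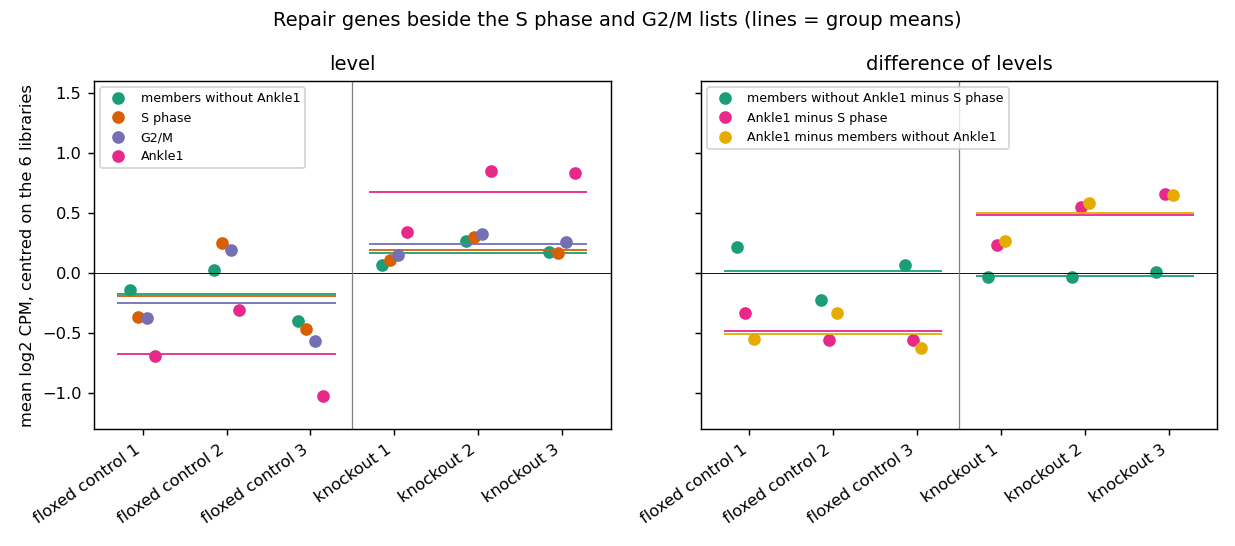
Left, mean log2 CPM centred on the 6 libraries (vertical axis) for the 36 repair genes without Ankle1, the S phase list, the G2/M list and Ankle1 in each library; right, differences between such levels within a library, with lines for group means. The 36 genes less the S phase list overlap between the groups, and the Ankle1 values are those that chose the gene.

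With all 6 libraries 0 of the 36 genes were called. When floxed control 2 was left out, edgeR called 5 of the 36 genes higher, beside 1.42% of all genes. They were Bard1 (log2 1.21, adjusted p = 0.0306), Rad51ap1 (0.79, adjusted p = 0.0398), Rad54l (0.81, adjusted p = 0.0281), Fanca (0.79, adjusted p = 0.0395) and Neil3 (1.03, adjusted p = 0.0410), each by edgeR. Floxed control 2 was the highest floxed control for each of these genes. Leaving it out therefore raises their log2 change by construction, and these calls give no separate support. With floxed control 2 and knockout 1 both left out, 4 of these 5 genes were called higher, again beside 1.42% of all genes. Fanca then had a log2 change of 0.65 (adjusted p = 0.0832 by edgeR). With floxed controls 1 and 3 left out instead, the median over the 37 genes, Ankle1 included, was 0.21. Of the 36 without Ankle1, 29 were positive, beside 53.0% of all genes. The lone control is then assumed to vary like the knockouts.

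A further 102 genes of these pathways and of nucleotide excision repair were all tested. Of these, 78 had a positive and 24 a negative log2 change, with a median of 0.16, beside 48.1% of all genes positive. None (0) was called by edgeR or by DESeq2, which called 0.0155% of all genes and 0.299% higher, respectively. Before adjustment 16 were higher and 0 lower at p under 0.05 by edgeR, beside 4.09% and 9.63% of all genes. The median was 0.23 over 25 other recombination genes, 0.19 over 13 other checkpoint genes, 0.19 over 9 other end joining genes and 0.12 over 15 other Fanconi genes. It was 0.15 over 4 other mismatch repair genes, 0.11 over 19 other base excision genes and 0.14 over 17 nucleotide excision genes.

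Polq, the polymerase of microhomology end joining, was at 6.53 ± 1.85 CPM in the floxed controls and 11.6 ± 1.49 CPM in the knockouts (SD, n = 3; log2 0.83 ± 0.25, adjusted p = 0.191 by edgeR), and Paxx, a factor of classical end joining, had -0.32 ± 0.19. Topbp1 and Clspn, which activate ATR and CHEK1, had log2 changes of 0.62 ± 0.19 and 0.57 ± 0.21, and Fancb of the Fanconi core 0.80 ± 0.30. The resolvase gene Gen1 had 0.57 ± 0.25, Tdp2 and Parp2 of strand break repair 0.56 ± 0.18 and 0.53 ± 0.18, and Ddb2 of nucleotide excision repair 0.70 ± 0.23. Of the LEM domain family to which ANKLE1 belongs, 5 other genes were tested, with a median of 0.075 and 0 called by edgeR or DESeq2. None (0) had an unadjusted p under 0.05, where 4.09% of all genes were higher and 9.63% lower. Tmpo, of the nuclear lamina, had 0.37 ± 0.20 and Emd, which encodes emerin, -0.17 ± 0.20.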

How the data were processed

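Total RNA of crypts was sequenced as mRNA libraries with 50 bp single-end reads, per the labels. For the build, mm10, the source is the submitters' processing notes; which aligner, counter and annotation were used is not given in the sources used here. Deposited by the authors are estimated counts per gene, not normalised; these were rounded before the count tests. Whether counting used strand is not given, and exons of 16 of the 37 genes overlap another gene in GENCODE M21, whose reads may be mixed with theirs. No libraries were duplicates.

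The test was edgeR 4.0.16 in R 4.3.3 (filterByExpr, TMM, robust glmQLFit, glmQLFTest) on all genes, with adjusted p under 0.05. Its code was also run on simulated counts, whose results are not reported here and lend no support to the results above. CPM are TMM-scaled, and centred log2 levels used a prior count of 2. The pairs of libraries left out were chosen from earlier results of these data. Alternatives were DESeq2 1.42.0, limma 3.58.1 (voom), other scaling and filters, a replicate block and libraries left out. Sequences are from RefSeq. The members and lists were chosen with earlier results of these data known. Genes given in every library were Ankle1 and, in each role, the member with the highest mean CPM and the 2 with the largest log2 change; Brca1, Brca2 and Mus81 were added after their values were seen. Further repair genes named were up to 2 a list with the largest log2 change at an average log2 CPM of at least 1; some are not reported here.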

Additional observations from a re-analysis of the deposited data

How the results depend on the processing

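Over 59 results and 15 alternatives, 812 of 885 recomputed values kept their direction, their side of the threshold or their value within the spread between libraries. The 2 genes called over the whole table became 0 with DESeq2 size factors and 0 with TMM without the 50 most abundant genes, 342 by DESeq2, 1 by limma-voom, 67 with no filter beyond 1 count, 12 with floxed controls 1 and 3 left out and 920 with floxed control 2 and knockout 1 left out, and 0 to 955 when each library was left out in turn (955 without floxed control 2). Those called higher, 1 of the 2, became 0, 0, 38, 1, 3, 3 and 185 in that order, and 0 to 188. Of the 36 members, 4 were called higher without floxed control 2 and knockout 1, and 0 to 5 without single libraries (5 without floxed control 2); 0 were called in the other alternatives. The cause was not tested.

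Here and below, medians over the 37 genes and over the endonuclease genes include Ankle1, which was chosen for its change. With floxed control 2 and knockout 1 left out, the median log2 change was 0.54 over the 37 genes, 0.64 for recombination, 0.60 for Fanconi, 0.35 for base excision and 0.51 for endonuclease genes. In the same setting it was 0.38 for other recombination, 0.27 for other mismatch repair, 0.40 for other checkpoint, 0.22 for nucleotide excision and 0.29 for all other repair genes. With floxed controls 1 and 3 left out it was 0.24 for recombination, 0.0079 for base excision, 0.092 for end joining, 0.022 for other base excision and 0.018 for nucleotide excision genes. Without single libraries it was 0.096 to 0.28 for other mismatch repair, 0.10 to 0.30 for other end joining, 0.18 to 0.36 for other checkpoint, 0.11 to 0.31 for base excision, 0.011 to 0.17 for end joining, 0.068 to 0.18 for other Fanconi, 0.090 to 0.20 for other base excision, 0.071 to 0.21 for nucleotide excision and 0.032 to 0.22 for LEM domain genes, and from 0.28 to 0.44 over the 37 genes.

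The sign turned for 9 of the members. With floxed controls 1 and 3 left out the log2 change was -0.13 for Rad51b, -0.013 for Xrcc2, -0.18 for Ube2t, -0.23 for Xrcc1, -0.055 for Parp1, -0.027 for Xrcc5, -0.031 for Mus81, 0.11 for Lig4 and 0.42 for Atm. Without single libraries it was -0.17 to 0.16 for Rad51b, -0.078 to 0.18 for Xrcc2, -0.061 to 0.30 for Xrcc1, -0.017 to 0.10 for Xrcc5, -0.13 to 0.15 for Lig4, -0.20 to 0.30 for Atm and -0.079 to 0.18 for Mus81. Ankle1 ran from 1.22 to 1.56.

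Whether the shared replicate numbers pair the libraries is not known. Deviations from the group means correlated at -0.18, -0.27 and 0.068 for numbers 1, 2 and 3. The 3 deviations in a group are tied to each other, so these values cannot decide it. With the replicate block 39 genes were called, 3 of them higher and 0 of the 36 members, and the median over the 37 genes was 0.38. With 3 libraries a group and a biological coefficient of variation of 20.3%, single changes of the size seen in most members may not be detectable.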
